A study of Mus musculus with 27 samples.

Results

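The libraries described here are those of Per1-/- mouse embryonic fibroblasts (MEFs) before and 2 days into their reprogramming to induced neurons (iNs). They were chosen by their labels alone, as the 3 libraries of genotype Per1-/- on day 2 and the 3 on day 0, 6 of the 27 in the series, and they were compared across all genes. The series also holds WT cells and cells labelled Per2-/-, and each genotype was sampled on days 0, 2 and 4 with 3 replicates, by bulk RNA-seq of polyadenylated RNA. All 27 libraries entered the filter and the estimate of spread, and values of the other genotypes and of day 4 are set beside those of Per1-/- cells in places. The question is what Per1-deficient fibroblasts do when the neuronal program is switched on.

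By the study's protocol the cells were infected, 3 days before day 0, with lentiviruses that carry 3 neuronal transcription factors, Brn2 (gene symbol Pou3f2) and Myt1l among them, under a doxycycline-controlled promoter, together with the transactivator that doxycycline needs. On day 0 they were moved from serum-containing medium to a serum-free neuronal medium with insulin, transferrin, progesterone, putrescine, selenium and bFGF, and doxycycline was added. Day 0 samples therefore stand for cells before induction and day 2 samples for cells after 2 days of it. The sources used here do not state whether the day 0 libraries came from infected cells. Infection (if they did not), doxycycline, the loss of serum, the growth factors and time in culture changed together, so their parts in any change below cannot be told apart. The MEFs came from embryos of Per1-/- mice (allele Per1tm1Drw, lost in the whole animal) without head and heart, with tissue of 4 embryos pooled in each dish. Such cultures are mixtures and are known to hold macrophages beside the fibroblasts, and their sex was not determined.

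In the nervous system proneural basic helix-loop-helix factors activate neuronal genes through E-boxes, and in this kind of reprogramming BRN2 and MYT1L help to establish the neuronal program and to silence others. Fibroblasts in serum are contractile, proliferating cells, and removal of serum by itself is known to lower growth-related and contractile genes. PER1 is a repressor of the circadian clock, the feedback loop in which CLOCK and BMAL1 drive the Per and Cry genes and are inhibited by their products.

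The 6 libraries held 16846708 to 21715329 fragments counted on genes. Values are FPKM, fragment counts scaled to gene length and library size, as deposited, and changes are differences of log2(FPKM + 0.1), which understates the change of genes near 0. Tests used limma on the 14932 genes whose mean over the 27 libraries reached 0.5 FPKM, with Benjamini-Hochberg adjustment over all of them. Genes were called where the adjusted p did not exceed 0.05 and the change was 0.58 or more in size on the log2 scale, the thresholds of the study. Each adjusted p below is from this fit. Day 2 libraries had more detected genes (23510 to 24378 above 0) than day 0 libraries (21379 to 21626), and their FPKM values summed to less, 261955 to 289211 against 354020 to 372075. Scaling to a common sum (TPM) instead moves the median of all genes from -0.01 to 0.38 on the log2 scale. Every change below is therefore relative to the deposited scaling, and many calls of lower genes depend on it. Of the 2811 genes called lower between day 0 and day 2 of Per1-/- cells, 1172 were also called lower with TPM.

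The targeted gene was examined as a check of the label. Per1 (ENSMUSG00000020893, GRCm38 chr11:69095217-69109960, plus strand) was at 4.96, 3.23 and 4.15 FPKM on day 0 and at 4.49, 4.51 and 3.62 on day 2 in the Per1-/- libraries. The 2 days overlapped, and the log2 change was 0.05 (SE 0.138, adjusted p = 0.788). WT libraries held 6.33, 5.58 and 5.44 FPKM on day 0 and 4.76, 4.81 and 4.83 on day 2, above all 3 Per1-/- libraries of the same day. Fragments on the gene were thus present in the libraries labelled Per1-/-, and the transcript level by itself does not check the label. The study checked the loss of the protein in the MEFs by western blotting, which was not analysed here. Per2, the paralog, was at 1.13, 1.02 and 1.25 FPKM on day 0 and 2.02, 1.85 and 1.79 on day 2. Its days did not overlap, with a log2 change of 0.69 (SE 0.127, adjusted p = 9.17e-05). With a pseudocount of 1 FPKM in place of 0.1 the change was 0.44, under the threshold.

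Within 2 days, 3101 of the 14932 genes (20.8%) were called higher and 2811 (18.8%) lower in Per1-/- cells. Large changes were more often rises. A log2 change of at least 3 was reached by 288 genes called higher and 96 called lower, and one of at least 5 by 31 and 5. Of the called genes, 5519 did not overlap between the 3 libraries of day 0 and the 3 of day 2, as did 9037 of all tested genes (60.5%). Calls held for 2350 of the genes called higher and 1972 of those called lower in each of the 6 fits without 1 Per1-/- library. With TPM the split was 5373 higher and 1173 lower, so 82.1% of called genes were higher there against 52.5% here. No gene called in 1 direction was called in the other with TPM. By type, 2746 of 12754 protein-coding genes rose and 2462 fell, while among processed pseudogenes 43 of 740 rose and 197 fell. Counting was not stated to keep fragments of pseudogenes apart from those of their parent genes, so the pseudogene values are uncertain.

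Transduced factors were the check that induction had worked. Pou3f2, a POU-domain factor of neural development, went from 0.0278, 0.0232 and 0.0121 FPKM to 309, 299 and 250, a log2 change of 11.20 (SE 0.316, adjusted p = 7e-16). Every day 2 library lay far above every day 0 library. Myt1l, a zinc finger repressor of non-neuronal genes, stayed far lower, with 0, 0.0185 and 0 FPKM on day 0 and 0.496, 0.777 and 0.757 on day 2 (log2 change 2.85, SE 0.31, adjusted p = 1.39e-07). Fragments of the viral copies and of the cells' own genes cannot be told apart in these values. On day 4 the means were 152 ± 27.3 FPKM (SD, n = 3) for Pou3f2 and 1.02 ± 0.0512 for Myt1l, so Pou3f2 had a lower mean than on day 2 and Myt1l a higher one.

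**Figure D1:**
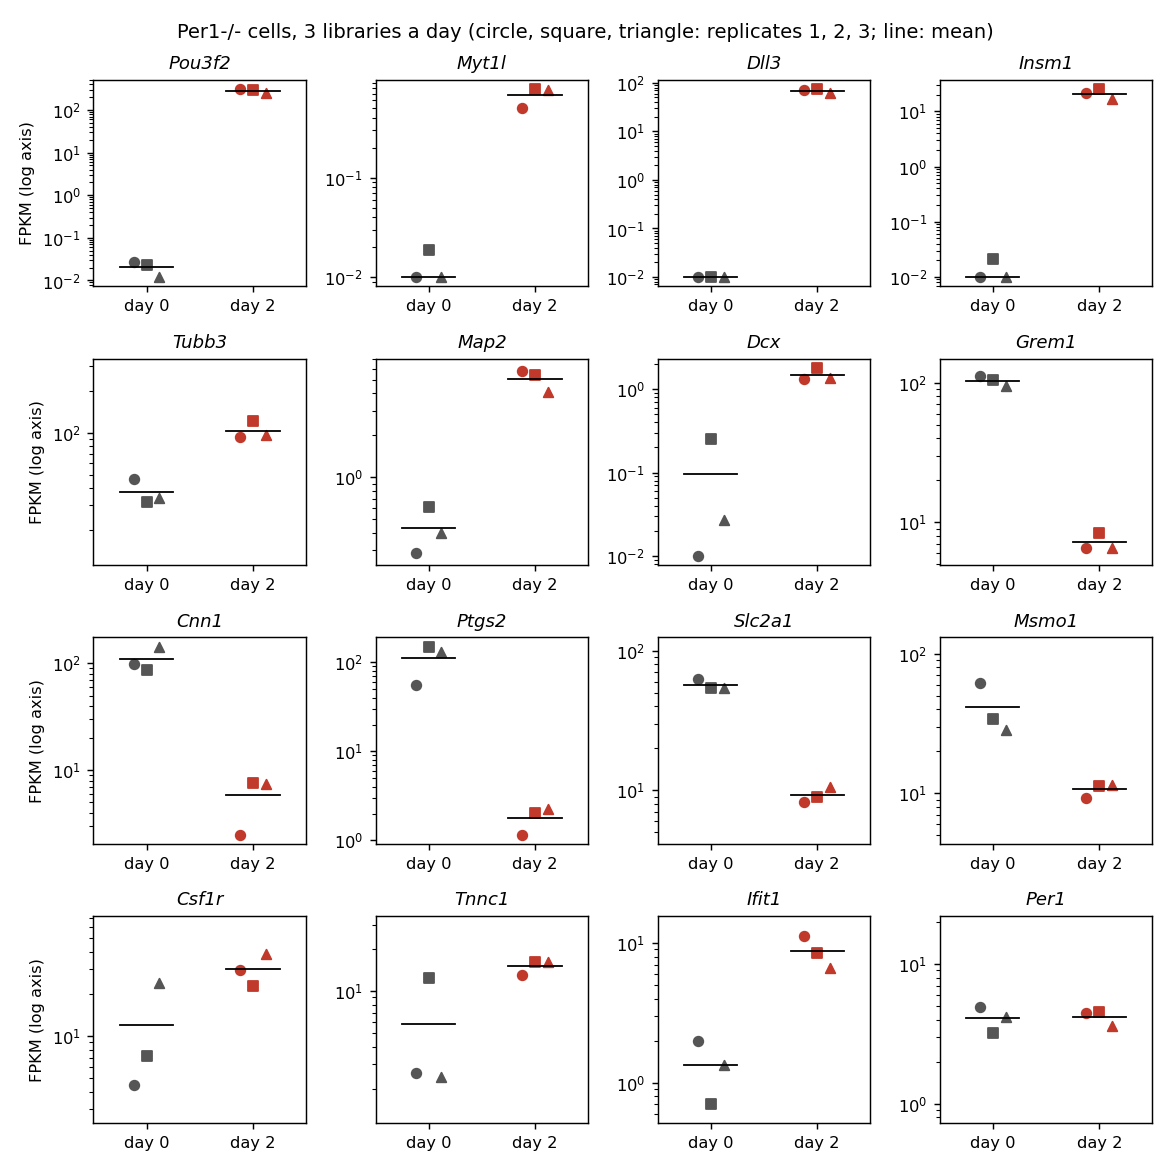
FPKM (log axis) of 16 genes in the 3 Per1-/- libraries of day 0 (grey) and of day 2 (red), with replicates 1, 2 and 3 as circle, square and triangle and the mean as a line, and values under 0.01 drawn at 0.01. Pou3f2 rises to 250 FPKM or more and Dll3 to 63.2 or more, and Grem1, Cnn1 and Ptgs2 fall, while the days overlap for Csf1r and Per1.

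Behind the factors stood the Notch ligands and transcription factors of neurogenesis. A list of 40 proneural and neuronal transcription factors and Notch components was used, of which 29 were tested, 22 were called higher and 1 lower, with a median log2 change of 2.17 against -0.01 for all genes. Dll3, a divergent Notch ligand made by nascent neurons, had no fragment in any day 0 library and 70.7, 74.4 and 63.2 FPKM on day 2. Taking 3 fragments per library as the floor, it was at least 1074-fold higher (adjusted p = 1.56e-15). Insm1, a zinc finger repressor of neuronal and neuroendocrine progenitors, was at 0, 0.0209 and 0 FPKM on day 0 and 21, 25.2 and 16.6 on day 2 (log2 change 7.61, SE 0.288, adjusted p = 6.88e-14). The Notch ligands Dll1 (5.61) and Dll4 (4.65) also rose. The single member that fell was Hes1, the Notch-driven repressor of proneural genes, from 17.7, 31.5 and 31.5 FPKM to 8.42, 15.7 and 14.4. Its days did not overlap, and its log2 change was -1.06 (SE 0.25, adjusted p = 0.00104). Among the 29 members 6 were not called, with log2 changes between -0.55 for Gadd45g and 0.67 for Lfng (chosen after their values were seen). The long noncoding RNA Miat rose from 0.0111, 0.0559 and 0 FPKM to 70.8, 75.2 and 67.5, a log2 change of 9.21 (SE 0.269, adjusted p = 7.1e-16).

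An E-box that proneural factors are known to bind has the letters CAGCTG, which read the same on both strands. It was searched in RefSeq promoters of GRCm38.p6, from 250 bases before to 50 after each start site, and a gene counted when any of its promoters held it. The search matched 10352 tested genes by symbol, and 1883 of them (18.2%) held the motif. Among genes called higher it was in 550 of 2206 (24.9%), and among genes called lower in 294 of 1977 (14.9%). The share was larger where the rise was larger, with 159 of 488 (32.6%) at a log2 change of at least 2 and 70 of 192 (36.5%) at a log2 change of at least 3. At least 2 copies stood in the promoters of 1.94% of tested genes, 3.22% of genes called higher and 9.9% of those with a log2 change of at least 3. The number of promoters per gene was alike, at 1.33 for genes called higher, 1.25 for those called lower and 1.28 overall. Of the 22 proneural genes called higher 15 had a promoter in the table and 9 of these held the motif. Among the members named above that were called higher, no promoter with the motif was found for Insm1 and Dll4. The promoters of Dll3 and Dll1, where it was found, are shown. Each has a single copy, in capitals, which starts 7 bases before the start site in Dll3 (chr7:28301736-28302035, minus strand) and 132 bases before it in Dll1 (chr17:15376883-15377182, minus strand). These counts describe letters in a window and carry no test.
Dll3: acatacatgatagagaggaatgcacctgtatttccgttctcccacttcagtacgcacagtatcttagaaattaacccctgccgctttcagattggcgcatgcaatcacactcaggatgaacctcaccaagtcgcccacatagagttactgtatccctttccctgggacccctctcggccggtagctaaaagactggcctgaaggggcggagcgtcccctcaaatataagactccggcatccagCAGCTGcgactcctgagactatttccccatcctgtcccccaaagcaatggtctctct
Dll1: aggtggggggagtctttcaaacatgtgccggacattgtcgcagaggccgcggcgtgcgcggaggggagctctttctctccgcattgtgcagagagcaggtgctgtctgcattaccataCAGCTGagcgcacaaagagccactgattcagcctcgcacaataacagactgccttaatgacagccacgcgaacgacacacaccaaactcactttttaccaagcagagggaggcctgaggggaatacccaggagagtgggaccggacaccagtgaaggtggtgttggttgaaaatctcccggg

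Neuronal structural genes were also higher on day 2. Tubb3, which encodes the neuronal tubulin used to score iNs, was at 46.2, 31.6 and 34.1 FPKM on day 0 and 93, 120 and 95.3 on day 2 (log2 change 1.47, SE 0.226, adjusted p = 1.16e-05). Map2, a dendritic microtubule-associated protein, went from 0.286, 0.615 and 0.395 FPKM to 5.79, 5.39 and 4.05 (log2 change 3.31, SE 0.348, adjusted p = 8.93e-08). Dcx, the doublecortin of migrating young neurons, went from 0.00817, 0.251 and 0.0268 FPKM to 1.34, 1.8 and 1.36 (log2 change 3.23, SE 0.305, adjusted p = 2.14e-08). For these 3 genes every day 2 library lay above every day 0 library. Mapt, which encodes tau, was at 0.0549, 0.129 and 0.144 FPKM on day 0 and only 0.239, 0.307 and 0.294 on day 2, with 8 to 16 fragments per library before and 42 to 45 after. It was called higher (log2 change 0.88, adjusted p = 0.0138), but not without day 0 replicate 1 (0.68). Nor was Mapt called with a pseudocount of 1 FPKM (0.21) or in a fit of only the 6 libraries. Its day 4 mean was 1.71 ± 0.5 FPKM (SD, n = 3). The last of the 5 neuron markers, Stmn2 (chosen after its values were seen), was not called, with a log2 change of -0.99 (adjusted p = 0.103). With the replicate number as a block it was called lower (adjusted p = 0.0153 with the replicate block), as it was without day 0 replicate 1 (-1.61) or day 2 replicate 2 (-1.42).

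Of the 35 genes of the neuronal cytoskeleton, 20 were called higher and 3 lower, with a median log2 change of 0.97. The largest rise was that of Prph, the intermediate filament peripherin, from 0.724, 0.389 and 0.271 FPKM to 27.7, 28.6 and 33.9 (log2 change 5.82). Gprin1 (3.75) and Dpysl5 (3.41), proteins of neurite outgrowth, also rose. The members that fell were Stmn4 (-2.23), Uchl1 (-0.80) and the tubulin Tuba1a (-0.68). The Stmn4 and Uchl1 libraries overlapped between days, and both calls depended on single libraries. Stmn4 was not called without day 0 replicate 2 (-1.45) or replicate 3 (-1.84), nor without day 2 replicate 2 (-2.01). Uchl1 was not called without day 0 replicate 2 (-0.58), and neither Uchl1 nor Tuba1a was called with TPM. With the replicate block 21 members were called higher and 5 lower, and without day 0 replicate 1 17 and 5.

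Genes of synapses and secretion, channels and neuronal RNA processing rose together. For synapse and secretion 21 of 29 tested genes were called higher and 2 lower (median log2 change 1.82). They included Pclo (5.01), a scaffold of the active zone, Syt1 (4.93), the calcium sensor of vesicle release, and the granule proteins Scg5 (4.21) and Chgb (4.07). Syt1 was at 0.0682, 0.0934 and 0.106 FPKM on day 0 and 5.27, 6.1 and 5.63 on day 2, without overlap. The members that fell were Sncg (-2.51), which encodes gamma-synuclein, and the neuropeptide precursor Vgf (-2.04). For channels and receptors 12 of 17 tested genes were called higher and 1 lower, the calcium channel Cacna1a (-0.97). Those called higher included the nicotinic receptor Chrna7 (3.33), the potassium channel Kcnd2 (3.03) and the glutamate receptor Gria4 (3.02).

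Of the neuronal RNA-binding proteins and components of REST repression 9 of 16 were called higher and 1 lower (median log2 change 1.08). Srrm3, which promotes neuronal microexons, went from 0.00807, 0 and 0.0106 FPKM to 1.61, 1.62 and 1.38 (log2 change 3.95, adjusted p = 3.97e-10). Elavl3 (3.14), Nova2 (2.97) and Elavl2 (2.56), neuronal splicing and stability factors, also rose. Ptbp1, which represses neuronal splicing in other cells, was at 90.7, 127 and 92.8 FPKM on day 0 and 47.3, 60.7 and 57.2 on day 2. Its days did not overlap (log2 change -0.90, adjusted p = 3.19e-06), though with TPM its change did not reach the threshold. The means of 14 of the 43 synapse genes and 15 of the 32 channels and receptors were under the filter, and these were not tested.

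Other genes among the 12 largest rises were Tnr (6.27), the neural matrix protein tenascin-R, B3gat1 (6.34), which makes the HNK-1 carbohydrate, Nsg2 (5.95), a protein of neuronal endosomes, the growth factor Bmp7 (6.08), the calcium-binding protein Pvalb (6.79), R3hdml (6.70) and Mir344-2. Bmp7 was at 0.553, 0.468 and 0.0843 FPKM on day 0 and 24.4, 32.1 and 26.7 on day 2. Its day 4 mean of 10.4 FPKM lay below each of the day 2 values. The gene model of Mir344-2 is 80 bases long and had 33, 15 and 10 fragments on day 2 and none on day 0, at least 4.86-fold higher with 3 fragments per library as the floor.

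**Figure D2:**
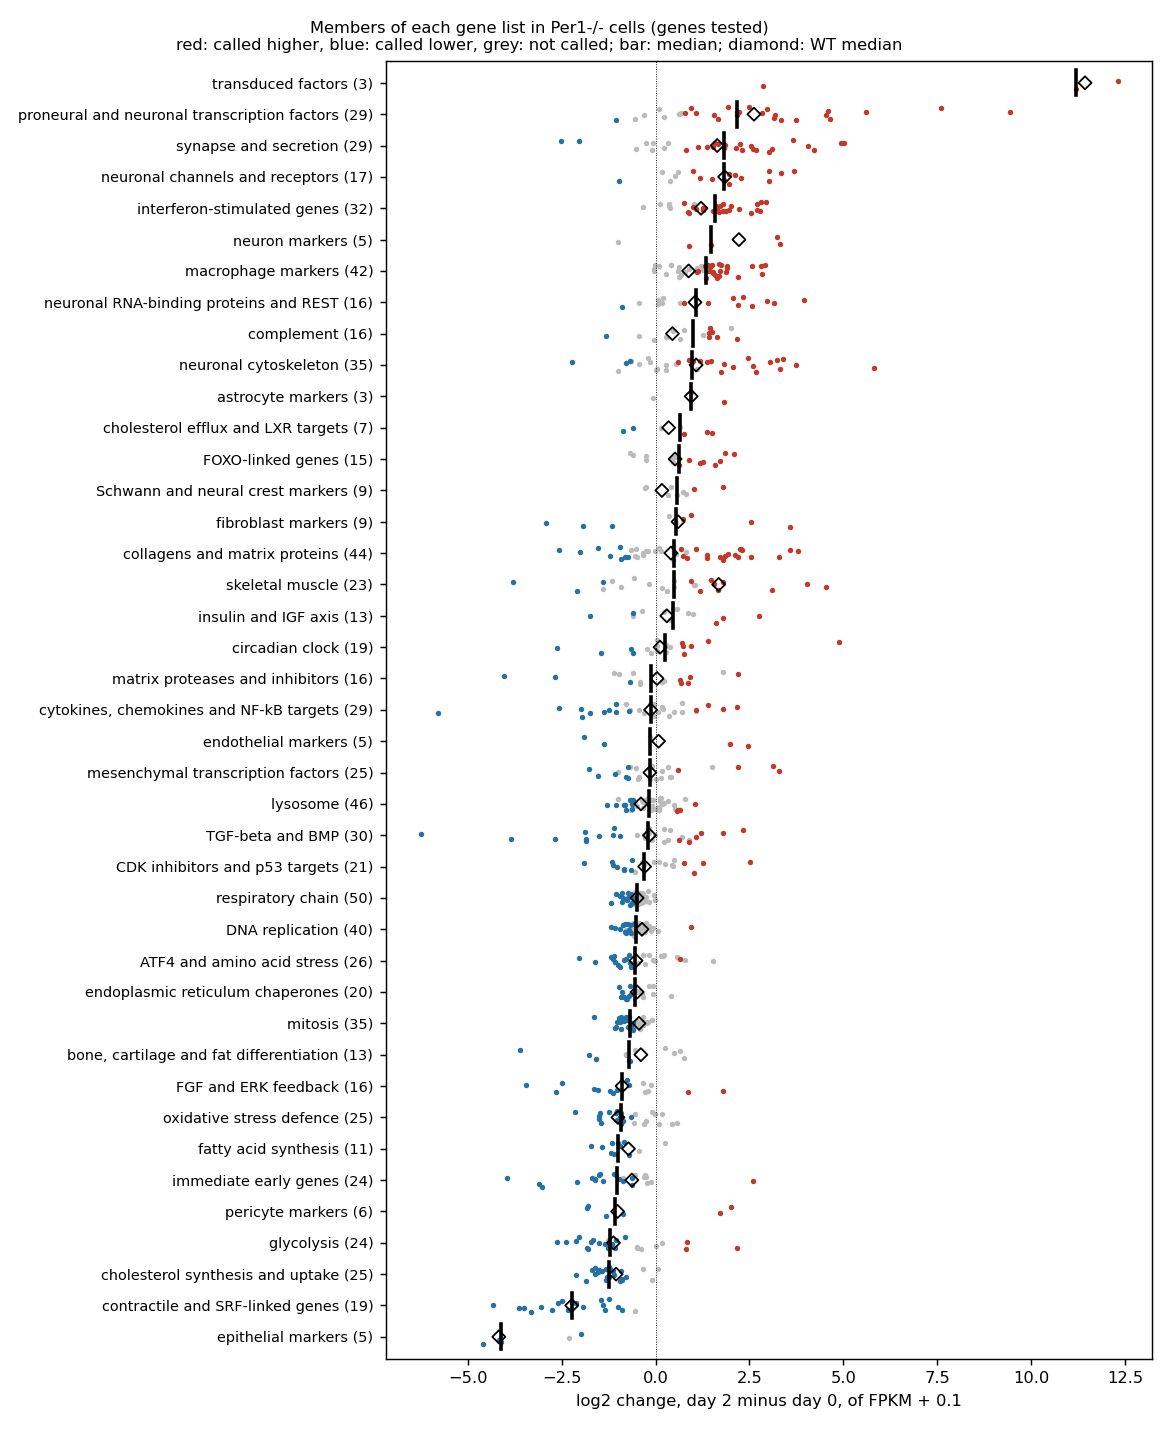
Log2 change from day 0 to day 2 of log2(FPKM + 0.1) for each tested member of 41 gene lists in Per1-/- cells (points; red called higher, blue called lower, grey not called), with the list median as a bar and the WT median as a diamond. Neuronal lists lie to the right, with a median of 2.17 for proneural factors, and contractile and epithelial lists to the left, with medians of -2.23 and -4.11.

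Large falls were seen in genes of several kinds. Ptgs2, the inducible cyclooxygenase COX-2, went from 55.4, 149 and 130 FPKM to 1.16, 2.01 and 2.24 (log2 change -5.80, SE 0.391, adjusted p = 2.54e-10), with the days far apart. Il1rl1, the receptor of interleukin 33, went from 81.8, 97.7 and 58.1 FPKM to 2.38, 4.11 and 2.35 (log2 change -4.72). Further genes among the 12 largest falls were Serpinb9b (-5.31), Gm37565 (-5.04), Krt18 (-4.59), Nipal1 (-4.53), Alkal1 (-4.47), a ligand of the receptor ALK, and the water channel Aqp5 (-4.41). Lce1h, a protein of the cornified envelope, varied from 0.586 to 17.5 FPKM on day 0 and had no fragment on day 2. Its mean was at least 39.5-fold lower, with 3 fragments per library as the floor. That bound holds for the mean, and the lowest day 0 library lay far below the day 0 mean. Mir221 and Gm22075, with 3 to 11 fragments in each day 0 library and none on day 2, were at least 2.52-fold and 3.18-fold lower in the mean. The libraries were of polyadenylated RNA, so fragments on Mir221 and Mir344-2 are not a measure of mature microRNAs.

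The contractile list fell almost as a whole. Of 19 genes linked to smooth muscle contraction and the factor SRF, 18 were called lower and 0 higher (median log2 change -2.23), and 17 were called lower with TPM. The list means were 6.54, 6.71 and 6.98 on day 0 and 3.95, 4.78 and 4.84 on day 2 on the scale of log2(FPKM + 0.1), without overlap. Cnn1, calponin, was at 98.5, 86.6 and 143 FPKM on day 0 and at 2.49, 7.55 and 7.5 on day 2 (log2 change -4.33, SE 0.462, adjusted p = 1.09e-07). Ctgf (-3.65), a secreted factor that YAP and SRF are known to drive, the smooth muscle actin Actg2 (-3.50) and the smooth muscle myosin Myh11 (-3.32) fell too. The member not called was Mylk (-0.55, chosen after its values were seen), the myosin light chain kinase. In WT cells the list median was also -2.23.

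Immediate early genes, the fast responders to serum, were mostly lower. Of 24 tested, 16 were called lower and 1 higher (median log2 change -1.02), with 10 called lower under TPM. Fosl1 (-3.96), Ier3 (-3.10), Nr4a1 (-3.03) and Dusp1 (-2.08) fell. The riser was Nr4a3, an orphan nuclear receptor, from 1.44, 0.639 and 0.486 FPKM to 4.27, 5.85 and 5.72 (log2 change 2.61, adjusted p = 1.28e-07). In the list of FGF and ERK feedback 10 of 16 genes were called lower and 2 higher. The phosphatases of ERK Dusp5 (-3.44) and Dusp4 (-2.50) and the ETS factor Etv4 (-2.66) fell, while Etv1 (1.79) and Il17rd (0.86) rose.

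TGF-beta and BMP genes moved both ways, with 6 of 30 called higher and 10 lower, the former a share near the 20.8% of all genes. Among the 10, the BMP antagonist Grem1 (-3.84) and the activin subunit Inhba (-2.68) fell. Grem1 was at 112, 104 and 94.2 FPKM on day 0 and 6.56, 8.38 and 6.53 on day 2. The BMP-induced inhibitors of differentiation Id2 (1.81) and Id1 (1.21) and another BMP antagonist, Chrd (2.31), rose. Id2 went from 17, 18.4 and 28.1 FPKM to 71.7, 71.3 and 75, without overlap.

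Matrix genes moved both ways. Of 44 collagens and matrix proteins 19 were called higher and 8 lower (median log2 change 0.49), with 5 lower without day 2 replicate 1. The 8 called lower were a share near the 18.8% of all genes. With TPM 24 were called higher and 4 lower, and in a fit of only the 6 libraries 18 and 4. Mfap4 (3.79), the small proteoglycans Lum (3.58) and Dcn (2.55) and elastin, Eln (3.29), rose. Tnc, tenascin-C (-2.57), Thbs1 (-2.00), Fbln2 (-1.53) and Nid1 (-1.22) fell. Dcn varied widely between replicates, with 27.4, 7.43 and 12.5 FPKM on day 0 and 147, 46.9 and 75.9 on day 2, yet the days did not overlap (adjusted p = 0.000705). Thbs1, thrombospondin 1, went from 1894, 1318 and 1719 FPKM to 310, 426 and 506. Of 16 proteases and inhibitors 5 were called higher, led by Adamts4 (2.19), and 3 lower, led by Mmp10 (-4.02) and Timp1 (-2.68), an inhibitor of matrix metalloproteases. Those 3 were a share near the 18.8% of all genes. The number called higher was 3 without day 0 replicate 2 or replicate 3 and 2 without day 2 replicate 1.

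The general fibroblast markers did not move as 1 block, with 4 of 9 called higher and 3 lower. Lum, Dcn and Fap (0.95) rose, whereas S100a4 (-2.93), Thy1 (-1.94) and the filament protein vimentin, Vim (-1.17), fell. Vim was at 965, 1462 and 1315 FPKM on day 0 and 532, 560 and 551 on day 2. Among mesenchymal transcription factors 4 of 25 were called higher, led by Meox1 (3.29) and Osr2 (3.13), and 6 lower, led by Twist2 (-1.76), shares near those of all genes (20.8% and 18.8%). With TPM these counts were 7 and 2 and the list median changed sign, from -0.15 to 0.25.

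Metabolic genes fell along several routes. In cholesterol synthesis and uptake 22 of 25 genes were called lower and 0 higher (median log2 change -1.25, and 16 called lower with TPM). Msmo1, a sterol oxidase of the pathway, was at 61.1, 33.8 and 28.5 FPKM on day 0 and 9.22, 11.3 and 11.5 on day 2, without overlap (log2 change -1.86, SE 0.313, adjusted p = 3.44e-05). The isomerase Idi1 (-1.61) fell as well. The size of the fall varied with the day 0 library, since the list mean changed by -2.11, -0.84 and -0.58 between libraries of the same number. Day 0 replicate 1 had the highest mean, 5.21 against 4.28 and 4.00. Fatty acid synthesis went the same way, with 9 of 11 called lower (4 with TPM), among them Scd1 (-1.72) and Fasn (-1.42). Of 7 genes of cholesterol efflux 3 were called higher and 2 lower, the latter count being 0 without day 0 replicate 1. The risers included the exporter Abca1 (1.51), which went from 6.37, 3.82 and 7.16 FPKM to 18.4, 14.8 and 15.5.

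In glycolysis 15 of 24 genes were called lower and 3 higher (median log2 change -1.20, with 14 lower under TPM). The glucose transporter Slc2a1 was at 62.3, 54.2 and 54 FPKM on day 0 and 8.21, 8.97 and 10.5 on day 2 (log2 change -2.61, SE 0.184, adjusted p = 4.07e-10). Hk2 (-2.39), Eno1 (-2.11) and Ldha (-2.05) fell, while Pdk2 (2.18), an inhibitor of pyruvate oxidation, and the alternative isoforms Ldhb (0.83) and Pfkm (0.82) rose. Ldha went from 443, 400 and 394 FPKM to 92.9, 106 and 101, and Ldhb from 31.6, 21.4 and 31.4 to 47.2, 52.1 and 49.1. The respiratory chain had 16 of 50 genes called lower and 0 higher with a median of -0.50, but only 2 called lower with TPM. Oxidative stress defence had 15 of 25 called lower (9 with TPM), led by Nqo1 (-2.15), a quinone reductase and target of NRF2.

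Stress and folding genes were lower to a smaller degree. Of 26 genes of ATF4 and amino acid stress 13 were called lower and 1 higher, and of 20 chaperones of the endoplasmic reticulum 9 were called lower and 0 higher. With TPM 7 and 1 were called lower, and in the ATF4 list 4 were called higher, against 3 without day 0 replicate 1. Gdf15 (-2.03), Cebpb (-1.62) and Calr (-0.98), calreticulin, were among those that fell in both scalings. Genes linked to FOXO, which is active when growth factor signals are low, had 8 of 15 called higher and 0 lower. Sesn3 (1.84), Pink1 (1.71) and Sesn1 (1.59) rose, Pink1 from 16.3, 9.17 and 13.4 FPKM to 42, 41.8 and 40.1. In the insulin and IGF list 3 of 13 rose, Igfbp5 (2.75), Igfbp3 (1.80) and Igf1 (1.60), and 2 fell, Igfbp7 (-1.73) and Igf1r (-0.59). Both shares were near those of all genes, 20.8% called higher and 18.8% called lower. Igf1r was not called without day 0 replicate 2 or 3 (-0.55 each) or day 2 replicate 1 (-0.49). With the replicate block 5 were called higher and 3 lower, with TPM 9 and 1, and without day 2 replicate 3 5 and 2.

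Cell cycle genes were lower, but the counts rested on the scaling and on single libraries. Of 35 mitosis genes 23 were called lower and 0 higher (median log2 change -0.69), and of 40 genes of DNA replication 13 were called lower and 1 higher (-0.52). With TPM 4 and 2 were called lower. The mitosis means were 3.30, 4.25 and 3.40 on day 0 and 2.61, 3.33 and 2.96 on day 2 in log2(FPKM + 0.1), so the highest day 2 library lay above the lowest day 0 library. Without day 0 replicate 2 the count fell to 9 for mitosis and 5 for replication, and without day 2 replicate 1 to 13 and 6. Without day 0 replicate 1 it was 26 for mitosis and 27 for replication, and a fit of only the 6 libraries gave 5 for each. Anln (-1.63), anillin of the cleavage furrow, and Rrm2 (-1.18), a subunit of ribonucleotide reductase, had the largest falls. Anln was at 15.5, 32.5 and 17.8 FPKM on day 0 and 4.78, 9.09 and 6.7 on day 2, without overlap (adjusted p = 1.06e-05). Of CDK inhibitors and p53 targets 4 of 21 were called higher and 8 lower, which became 8 and 4 with TPM. The 4 called higher were a share near the 20.8% of all genes. Cdkn1c, the CDK inhibitor p57, went from 40.1, 75.4 and 38.3 FPKM to 294, 236 and 320 (log2 change 2.52, adjusted p = 1.98e-07), and Mdm2 (-1.15) and Pmaip1 (-1.92), p53 targets, fell.

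Day 0 replicate 2 weighed on the list of skeletal muscle genes as well. Its means were 0.16, 2.38 and 0.26 on day 0 and 1.36, 1.70 and 1.34 on day 2, so that replicate 2 started above every day 2 library. Of 23 tested genes 9 were called higher and 3 lower (median log2 change 0.48), and without day 0 replicate 2 the counts were 15 and 2 (median 1.39). Without day 0 replicate 3 they were 8 and 5 (median 0.03), and in a fit of only the 6 libraries 5 and 2. Tnnt2 (4.54), cardiac troponin T, Rbm24 (4.04), a splicing factor of muscle, and Mymx (3.09), a fusion protein of myoblasts, rose with and without each of the 6 libraries. Tnnc1, a troponin C, was at 2.58, 12.5 and 2.41 FPKM on day 0 and 13.1, 16.1 and 16.2 on day 2 (log2 change 1.79, SE 0.382, adjusted p = 0.000432). Acta1 (-3.80), the skeletal actin that SRF also drives, and desmin, Des (-2.08), fell. The differences of mitosis and muscle lists between day 0 libraries moved together in replicate 2, and their part in each other was not tested.

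Macrophage markers were higher on day 2, but unevenly between replicates. Of 48 markers 42 were tested, 24 were called higher and 0 lower, with a median log2 change of 1.33. The list means were 1.00, 1.79 and 3.40 on day 0 and 3.28, 3.02 and 3.73 on day 2, so day 0 replicate 3 lay above 2 of the 3 day 2 libraries. Libraries of the same number differed by 2.28, 1.23 and 0.33 between the days. The summed level of the list was 257 to 1411 FPKM on day 0 and 812 to 1619 on day 2. Without day 0 replicate 3 the calls numbered 35, without day 0 replicate 1 only 10, without day 0 replicate 2 or day 2 replicate 3 14 each, and 28 with the replicate block. A fit of only the 6 libraries called 10. In bulk libraries more macrophages and more RNA per macrophage cannot be told apart, and the same holds for every cell type here.

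**Figure D3:**
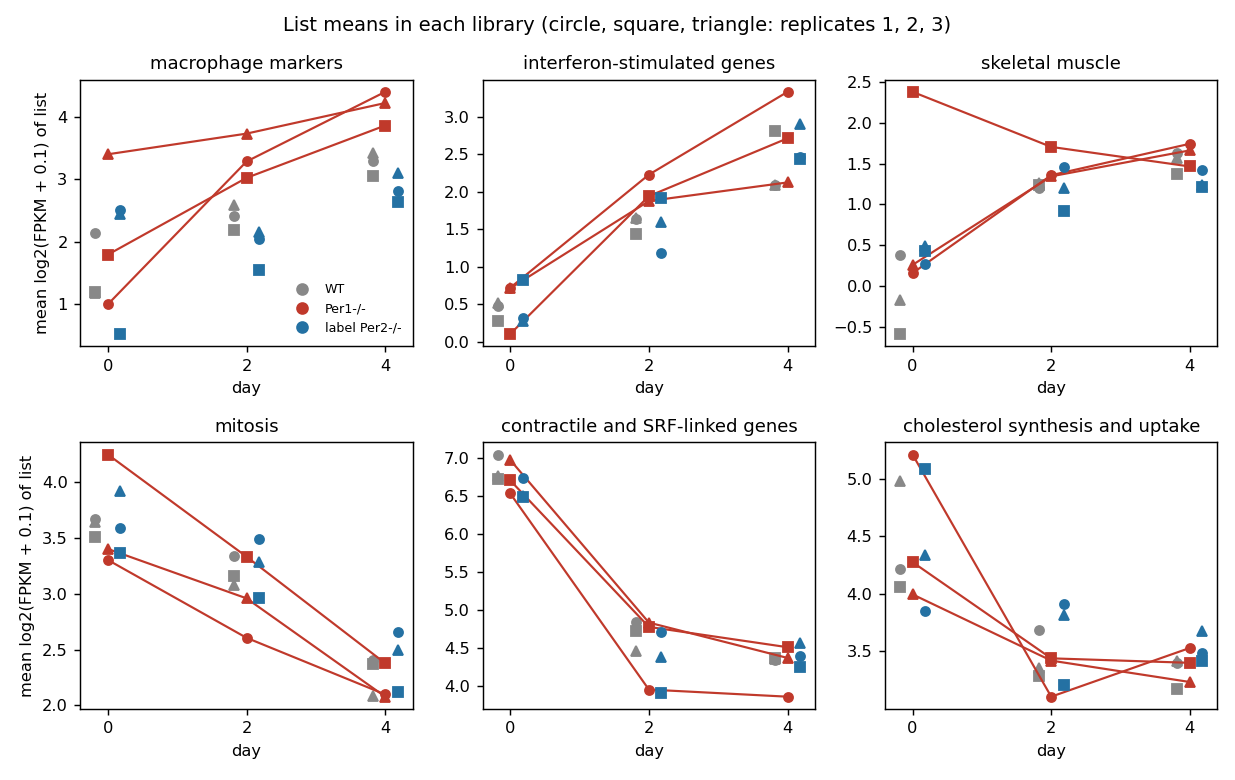
Mean log2(FPKM + 0.1) of 6 gene lists in each library on days 0, 2 and 4, with Per1-/- libraries in red (lines join the same replicate number), WT in grey and libraries labelled Per2-/- in blue. Per1-/- replicate 3 starts high for macrophage markers (3.40) and replicate 2 for skeletal muscle (2.38) and mitosis (4.25), whereas contractile genes fall in all 3.

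The surface receptors showed the same pattern. Csf1r, the receptor of the macrophage growth factor M-CSF, was at 4.45, 7.17 and 24.1 FPKM on day 0 and at 29.5, 23 and 38.6 on day 2 (log2 change 1.68, SE 0.527, adjusted p = 0.0093). Day 0 replicate 3 overlapped with day 2, and the gene was not called without day 0 replicate 1 (1.17). Adgre1, which encodes F4/80, was at 2.75, 4.35 and 14.2 FPKM and then 14.4, 11.3 and 18.2 (log2 change 1.35, adjusted p = 0.0226). Itgam, which encodes CD11b, was at 0.401, 0.865 and 2.18 FPKM and then 3.29, 1.61 and 2.84 (log2 change 1.31, adjusted p = 0.036). Neither Adgre1 nor Itgam was called without day 0 replicate 1 (0.86 and 0.79), day 0 replicate 2 (1.18 and 1.27), day 2 replicate 1 (1.35 and 1.12) or day 2 replicate 3 (1.18 and 1.22). Siglec1 (2.90), Cx3cr1 (2.83), Ms4a6c (2.80) and Aif1 (2.57) were called and did not overlap. Siglec1, a lectin of macrophages that interferon is known to raise, was at 0.275, 0.69 and 2.33 FPKM on day 0 and 6.66, 4.67 and 9.28 on day 2. Day 4 means were higher than each day 2 library for Csf1r (68.8 ± 12.6 FPKM, SD, n = 3) and Adgre1 (44.8 ± 8.58).

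Cytokine genes moved in both directions. Tnf, a cytokine of activated macrophages, was at 0.946, 0.317 and 4.67 FPKM on day 0 and 2.36, 1.32 and 2.52 on day 2, overlapping, with a log2 change of 0.71 (SE 0.615, adjusted p = 0.329). It was highest in day 0 replicate 3, the library with the highest macrophage list on that day. Without that library its log2 change was 1.66 and it was called, and without day 0 replicate 2 the change was -0.10. Of 29 cytokines, chemokines and NF-kB targets 4 were called higher and 10 lower, and without day 0 replicate 3 the number called higher was 8. Beside Ptgs2, Il11 (-2.57), the monocyte attractant Ccl2 (-1.98) and Csf1 (-1.96), which encodes M-CSF, fell. Csf1 was at 171, 91 and 153 FPKM on day 0 and 39, 29.2 and 35.3 on day 2. Cxcl13 (2.16), Il33 (1.40) and Tlr2 (1.07) rose. Ccl8 (1.79) was called too, but not without day 0 replicate 2 (0.99) or day 2 replicate 1 (1.53), 2 (1.94) or 3 (1.89). Tlr2, a receptor of bacterial lipoproteins, was at 2.13, 1.49 and 2.88 FPKM and then 4.3, 4.01 and 5.24.

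Interferon-stimulated genes rose in all 3 replicates. Of 32 tested, 26 were called higher and 0 lower, with a median log2 change of 1.59, and the count was 23 to 26 in the fits without 1 library. The list means were 0.72, 0.10 and 0.71 on day 0 and 2.23, 1.94 and 1.88 on day 2, without overlap. Ifit1, an antiviral RNA-binding protein, was at 1.98, 0.708 and 1.33 FPKM on day 0 and 11.3, 8.55 and 6.61 on day 2 (log2 change 2.70, SE 0.471, adjusted p = 5.08e-05). Mx2 (2.93), Oas2 (2.81) and Oasl2 (2.78), antiviral effectors, rose as well. With the macrophage list mean of each library as a covariate 25 of these genes were called higher. That mean came from the same libraries and itself differed between the days, so this fit cannot set the part of macrophages apart. The part of macrophages and of lentivirus in these levels was not tested.

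Complement had 6 of 16 genes called higher and 1 lower (median log2 change 1.01). With the macrophage mean as a covariate 5 were called higher and 3 lower. C1qa, C1qb and C1qc are in both lists, so that mean contains them and the fit says nothing about their own change. Without day 0 replicate 2 the number called higher was 2, and it was 1 in a fit of only the 6 libraries. C1s1 (2.17), a protease of the classical pathway that fibroblasts make, was at 7.3, 1.33 and 2.03 FPKM on day 0 and 22.5, 7.93 and 11.2 on day 2. C1qb (1.44), made by macrophages, was at 20.7, 28.6 and 122 FPKM and then 100, 94.6 and 154. The high library of C1qb on day 0 was again replicate 3, and it overlapped with day 2. C1qb was not called without day 0 replicate 1 (0.94), day 0 replicate 2 (1.17) or day 2 replicate 3 (1.22). Of 46 lysosome genes 4 were called higher and 11 lower, and 9 and 2 with TPM, which turned the median from -0.18 to 0.22. The 11 called lower were a share near the 18.8% of all genes. Without day 0 replicate 3 the counts were 7 and 5, and the number called higher was 1 without day 0 replicate 2 and 2 without day 2 replicate 1, while that called lower was 7 without day 2 replicate 2. Scarb2 (1.05), a lysosomal receptor, and Gla (-1.29), alpha-galactosidase, had the largest changes in the 2 directions.

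Clock genes other than Per1 changed in both directions, with 6 of 19 tested called higher and 4 lower. The lower share is near the 18.8% of all genes, and with TPM the counts were 9 and 2. Rora, a nuclear receptor that activates Bmal1, rose from 1.58, 0.804 and 1.56 FPKM to 3.93, 3.18 and 3.44 (1.41). The output factor Tef (0.76) rose as well, and Per3 (0.94) was called higher, but not without day 0 replicate 2 (0.57). Bhlhe40, a clock repressor that serum also induces, went from 13.3, 19.8 and 15.3 FPKM to 2.08, 2.73 and 2.73 (log2 change -2.63, adjusted p = 1.49e-08), and Nfil3 (-1.46) fell. Each library holds cells of a single time point, so phase of the clock and level cannot be told apart.

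Markers of other cell types were examined as well, many of which fibroblasts can also express. Epithelial markers were present on day 0 and far lower on day 2, with 4 of 5 tested markers called lower and a median of -4.11. Krt19 was at 21.7, 52.5 and 35.4 FPKM on day 0 and 1.78, 1.63 and 2.09 on day 2 (log2 change -4.16, adjusted p = 9.17e-10). The other 5 epithelial markers, including Epcam and Cdh1, were under the filter with means of at most 0.443 FPKM. Pericyte markers moved both ways, with Mcam (-1.83) and Cspg4 (-1.79) among 4 called lower and Abcc9 (2.02) and Notch3 (1.73) called higher. Endothelial markers did so too, with Tek (2.46) and Ramp2 (1.99) higher and Kdr (-1.89) and Flt1 (-1.37) lower. Flt1 overlapped and was not called without day 0 replicate 2 (-1.01) or 3 (-1.28) or day 2 replicate 1 (-0.69). Pecam1 and Cdh5, which define endothelium, were under the filter. Of 9 tested markers of Schwann cells and neural crest, Fabp7 (1.80) and Cdh19 (1.03) were called higher, a share near the 20.8% of all genes. Fabp7 was not called without day 0 replicate 3 (1.12) or day 2 replicate 2 (1.63), nor Cdh19 without day 0 replicate 1 (0.86) or day 2 replicate 1 (0.94). Of 3 astrocyte markers Aqp4 (1.82) and Slc1a3 (0.94) were called, and neither was without day 0 replicate 3 (1.73 and 0.62), day 2 replicate 1 (1.74 and 0.88) or day 2 replicate 2 (1.45 and 0.93), nor Slc1a3 without day 0 replicate 2 (0.85). Erythroid, neutrophil and mast cell markers (6, 5 and 5 genes) were all under the filter. In the list of bone, cartilage and fat 5 of 13 genes were called lower, led by Col2a1, which varied from 2.24 to 33.5 FPKM on day 0 and was not called without day 0 replicate 2 (-2.55) or day 2 replicate 3 (-2.96). Without day 0 replicate 1, day 2 replicate 2 or day 2 replicate 3 only 2 of this list were called lower, and 3 without day 0 replicate 3. With the replicate block, or without day 0 replicate 1, 2 were also called higher.

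Whether these changes were particular to the Per1-/- genotype was asked with the interaction, the change in Per1-/- cells minus that in WT cells over 12 libraries. No gene was called higher or lower (0% of 14932 in each direction, limma with Benjamini-Hochberg adjustment). The smallest adjusted p was 0.791, 306 genes had an unadjusted p under 0.05, and limma with voom weights on the fragments also called 0, with 275 under 0.05. The libraries labelled Per2-/- held more Per2 transcript than WT, at 1.87, 2 and 1.9 FPKM on day 0 against 0.906, 0.957 and 0.817, so the transcript does not check that label either, and the protein was checked in the study. Against these libraries 0% were called as well, with a smallest adjusted p of 0.461 and 670 genes under 0.05 (581 with voom). The median SE of a difference was 0.23 on the log2 scale in both, with 3 libraries a group. To be called after adjustment over 14932 genes, a difference must be several times its SE. The absence of calls therefore does not show that the changes were equal. Across genes, which are not independent, the changes in Per1-/- and WT cells had Pearson's r of 0.919, and those in Per1-/- cells and the libraries labelled Per2-/- 0.897.

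**Figure D4:**
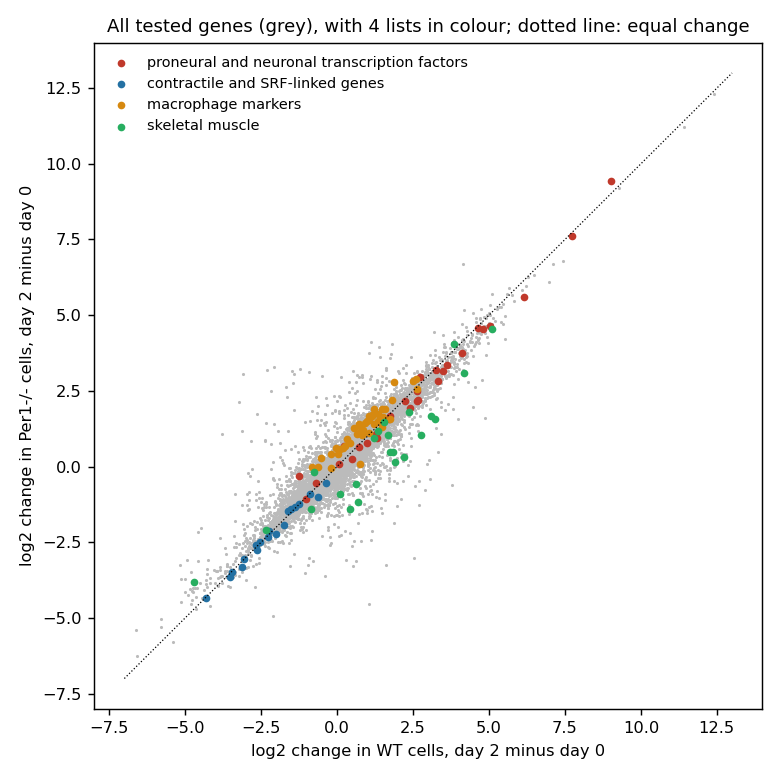
Log2 change from day 0 to day 2 in Per1-/- cells (vertical) against that in WT cells (horizontal) for all 14932 tested genes in grey, with 4 lists in colour and a dotted line where both changes are equal. Proneural genes lie at the upper right and contractile genes at the lower left, with medians of 2.17 and -2.23 in Per1-/- cells. Macrophage markers (median 1.33 against 0.88 in WT) lie mostly above the line and skeletal muscle genes (0.48 against 1.68) mostly below it. Without Per1-/- day 0 replicate 1 the macrophage median was 0.76. No single gene passed the test of the difference.

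Set beside each other, the list medians of Per1-/-, WT and the libraries labelled Per2-/- were 2.17, 2.62 and 2.36 for proneural factors, -2.23, -2.23 and -2.06 for contractile genes, and -1.25, -1.05 and -0.81 for cholesterol synthesis. They were 1.59, 1.21 and 1.06 for interferon-stimulated genes and 1.33, 0.88 and 0.08 for macrophage markers. The macrophage median of Per1-/- cells was 0.76 without day 0 replicate 1, under that of WT, and 1.99 without day 0 replicate 3. None of the 42 macrophage markers had an unadjusted p under 0.05 against WT, and 7 had against the libraries labelled Per2-/-, none of them called. For skeletal muscle the medians were 0.48, 1.68 and 1.08, and 5 of 23 genes had an unadjusted p under 0.05 against WT, none called. That list had the high day 0 replicate 2 in Per1-/- cells. Pou3f2 changed by 11.20, 11.43 and 12.29 in the 3 genotypes, and Tubb3 by 1.47, 2.22 and 2.24. The smaller change of Tubb3 came with a higher start in Per1-/- cells, 37.3 ± 7.82 FPKM (SD, n = 3) against 23.5, 20.6 and 22.7 in the WT libraries, and the difference of -0.75 from WT was not called (adjusted p = 1).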

How the data were processed

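Bulk RNA-seq libraries (27, from 3 genotypes and 3 days) were grouped by genotype and day from the labels. The authors aligned reads to GRCm38 with HISAT2 2.0.5, counted them on genes with featureCounts 1.5.0-p3 and deposited FPKM for 54532 genes. The deposited FPKM appear to include a median-of-ratios size factor, which the study does not state. They would then be scaled to most genes rather than to a common sum. With such factors computed again, 3095 genes were called higher and 2810 lower in Per1-/- cells. With the deposited gene lengths 100% of values gave whole fragments (tolerance 0.02), which set the depth, and edgeR or DESeq2 were not run here.

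A single limma 3.58.1 fit (R 4.3.3, mean-variance trend) over all 27 libraries and 9 groups was made on log2(FPKM + 0.1), with Benjamini-Hochberg adjustment over 14932 genes. Replicates are biological according to the study, and 3 against 3 libraries allow no exact permutation p below 0.1 for a single gene. Replicates differed beyond counting noise (chi-square divided by its degrees of freedom was 10.2 to 74.9). Libraries of the same replicate number deviated together in Per1-/- cells (r = 0.29, 0.21 and 0.15 across genes, against -0.21 to 0.02 for other numbers). With 3 libraries a day this does not establish that the numbers pair the libraries, so the replicate block is only an alternative. The labels do not say whether a number marks 1 culture.

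Genes were named by a rule: the clock, transduced, neuron and macrophage genes asked about, the 12 largest changes a direction without overlap and with at least 1 FPKM, and at most 4 called members of each list in each direction. Some genes the rule names, among them some with the largest change of their list or direction, are not reported here. The members, lists and tests were chosen with earlier results of these data known. Alternatives were other pseudocounts, filters and scalings, voom weights, the replicate block, a macrophage covariate, fewer libraries, no minimum fold and each library left out. The script was tested on simulated data. Python 3.11.15, pandas 2.3.3, numpy 2.4.6 and matplotlib 3.10.9 made tables and plots.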

Additional observations from a re-analysis of the deposited data

How the results depend on the processing

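In Per1-/- cells the alternatives that moved a count of genes by over 1.5 times were TPM (5373 higher and 1173 lower) and the removal of the minimum fold change (4595 lower). Without 1 library 2795 to 3274 genes were called higher and 2421 to 3040 lower. With the replicate block 3217 were called higher and 2898 lower, and among named genes it changed only the call of Stmn2. The interactions stayed at 0 genes in both directions with these exceptions. All genes above 0 FPKM gave 1 higher (Gm4974) and 1 lower (Igkv3-1) against WT and 1 higher (Gm4974) against the libraries labelled Per2-/-. The fits without 1 library gave 0 to 1 lower against the latter, the 1 being Fosb without Per1-/- day 0 replicate 1. These 3 genes were chosen after their values were seen. The log2 change of Per1, 0.05, was -0.11 to 0.19 without 1 library, and that of Tnf, 0.71, was -0.44 with the macrophage covariate and -0.10 to 1.66 without 1 library. Of 238 genes in the rule's tables, 44 lost their call in a fit without 1 library and 60 under another alternative. The medians of 7 of 41 lists changed sign with TPM. The causes were not tested. At 3 libraries a group, genes with few fragments, such as Mapt, Mir221 and Gm22075, limit what can be said.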
